A study of Danio rerio with 8 samples.

Results

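Transcripts of 9 interferon response genes were compared between runx2b-/- and wild type zebrafish tail muscle: the transcription factors stat1a, stat1b, stat2, irf9, irf1b and irf7, and the targets isg15, rsad2 and gig2e. The genes were chosen by name, with earlier results of these data known. The deposited table lists 25279 gene symbols and 8 of the members were matched in it by symbol; irf1b was not matched and was not analysed here. Of the 8 members, 6 had enough reads to be tested among 14107 genes, and stat1b and isg15 did not. gig2e was higher in mutant, 3.84-fold with a 95% interval of 2.09 to 7.05, a call that was lost when some single libraries were left out, and no other member was called. The reads that let gig2e be tested lay in its mutant libraries.

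Interferons are secreted proteins that cells release on sensing virus or other danger signals. They bind receptors of the class II cytokine receptor family, and the receptors activate Janus kinases, which phosphorylate STAT proteins. Activated STAT proteins, in part together with an interferon regulatory factor, then enter the nucleus and turn on antiviral genes, and in resting tissue such genes are commonly transcribed at a low level.

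Libraries of polyadenylated RNA came from tail muscle with its intermuscular bones, thin bones of the connective tissue between muscle segments, at 60 days post fertilization. Both groups belong to the Tg (sp7/eGFP) transgenic line, in which regulatory sequence of sp7, an osteoblast gene, drives a green fluorescent protein. One group is wild type and the other is runx2b-/-, homozygous for a mutation of runx2b, a runx2 gene known for its part in bone cell differentiation. The labels give neither the mutant allele nor sex, and do not say whether a library came from 1 fish, from pooled fish or from separate fish of a group. The p-values therefore measure the spread between these libraries, which may be technical.

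The libraries held between 17280098 and 20482003 counts, and 3 reads corresponded to 0.134 to 0.181 CPM, scaled counts relative to library size. runx2b itself had 2, 2 and 6 reads in wild type and 4, 2 and 6 in mutant, which is too few to check the genotype labels. All 12 listed muscle markers were detected and summed to 307322 to 451316 CPM in wild type and 255714 to 419641 in mutant.

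Of the transcription factors, the STAT genes and irf9 act directly below the receptors. stat1a (chromosome 22, 12773792 to 12802185, plus strand, 25 exon blocks in the table) had 204, 247 and 249 reads in wild type and 257, 213 and 205 in mutant, given here and hereafter in the order of libraries 1, 2 and 3. Scaled, the level of stat1a was 11.64 ± 2.55 CPM in wild type and 12.0 ± 0.843 in mutant (mean ± SD, n = 3 each). All mutant values lay between the lowest and the highest wild type value. The log2 fold change, mutant minus wild type, was 0.05 with a standard error (SE) of 0.18 and a 95% interval of -0.35 to 0.45 (edgeR's quasi-likelihood test with Benjamini-Hochberg adjustment, adjusted p = 0.921). A change of stat1a of more than about 1.36-fold upward or below 0.782 of wild type lay outside that interval.

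Its paralog stat1b (chromosome 9, 41417180 to 41445410, plus strand) was almost silent. It had 4, 6 and 0 reads in wild type and 1, 9 and 1 in mutant, 21 in all beside 1375 for stat1a. The ratio of scaled counts of stat1b, mutant over wild type, came to 1.195 (95% counting interval 0.461 to 3.14). That interval is wide and leaves out the spread between libraries, and stat1b was not tested in the main fit. Per kilobase of the gene length in the table, stat1a stood at 2.67 and stat1b at 0.0414 CPM over all 6 libraries. Counting can split the reads of paralogs wrongly. With both genes summed, a setting chosen after the values were seen, the log2 fold change was 0.05 (edgeR's adjusted p = 0.909), as for stat1a alone.

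stat2 (chromosome 6, 39126008 to 39162886, minus strand) had 126, 80 and 87 reads in wild type and 107, 117 and 81 in mutant. Its level was 4.78 ± 0.949 CPM in wild type and 5.49 ± 1.40 in mutant, and the groups overlapped. The log2 fold change was 0.19 (SE 0.23, 95% interval -0.31 to 0.70, edgeR's adjusted p = 0.701). irf9 (chromosome 12, 13244494 to 13268580, plus strand), which encodes a DNA-binding partner of activated STAT proteins, had 230, 231 and 155 reads in wild type and 173, 154 and 161 in mutant. The level of irf9 was 9.99 ± 1.03 CPM in wild type and 8.72 ± 0.624 in mutant, with a log2 fold change of -0.20 (SE 0.16, 95% interval -0.56 to 0.16, edgeR's adjusted p = 0.555). The highest mutant value of irf9, 9.31 CPM, stood above the lowest wild type value, 8.85 CPM.

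**Figure D1:**
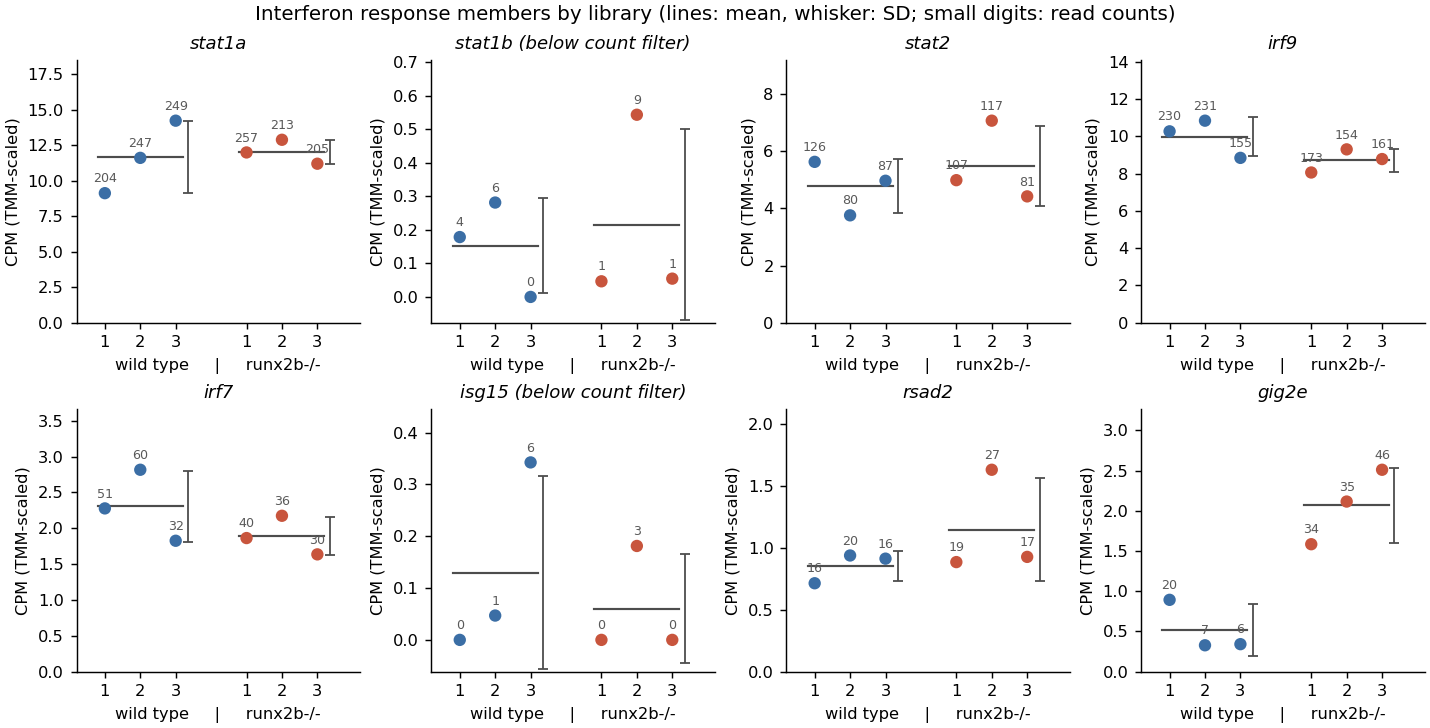
Each panel shows 1 of the 8 matched members, with TMM-scaled CPM on the vertical axis and the 3 wild type (blue) and 3 runx2b-/- (red) libraries on the horizontal axis. Lines are means, whiskers are SDs and small digits are read counts; gig2e is the member whose mutant values all lie above the wild type values.

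irf7 encodes a factor that drives transcription of type I interferon genes and is itself induced by interferon. On chromosome 25 (25451711 to 25455877, minus strand) it had 51, 60 and 32 reads in wild type and 40, 36 and 30 in mutant. The level of irf7 was 2.31 ± 0.496 CPM in wild type and 1.89 ± 0.270 in mutant, and the groups overlapped. The log2 fold change was -0.29 (SE 0.26, 95% interval -0.86 to 0.27, edgeR's adjusted p = 0.586).

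Of the 3 targets, isg15 encodes a ubiquitin-like protein that is joined to other proteins during an antiviral response. isg15 (chromosome 5, 19608232 to 19609484, plus strand, 2 exon blocks) was nearly undetected, with 0, 1 and 6 reads in wild type and 0, 3 and 0 in mutant. Wild type library 3 held 6 of the 10 reads. The ratio of scaled counts of isg15 came to 0.466 (counting interval 0.0777 to 2.04). rsad2 encodes viperin, an enzyme that makes a chain-terminating nucleotide and limits viral replication. On chromosome 17 (35409505 to 35413376, minus strand, 6 exon blocks) rsad2 had 16, 20 and 16 reads in wild type and 19, 27 and 17 in mutant.

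Scaled, rsad2 stood at 0.856 ± 0.123 CPM in wild type and 1.15 ± 0.419 in mutant, and the mutant mean rested on library 2, at 1.63 CPM beside 0.886 and 0.928 in the other two. The log2 fold change of rsad2 was 0.41 (SE 0.36, 95% interval -0.37 to 1.19, edgeR's adjusted p = 0.582). The gene span of rsad2 also covers parts of egr2a and adob, with 0 exon bases shared; the spans of the other 7 matched members overlap no other placed gene of the table.

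gig2e belongs to the gig2 family of virus- and interferon-induced fish genes, and lies on chromosome 21 (22648708 to 22653200, minus strand, 3 exon blocks). It had 20, 7 and 6 reads in wild type and 34, 35 and 46 in mutant. In wild type only library 1 reached the minimum count of 10, so gig2e passed the count filter through its mutant libraries. Scaled, the values of gig2e were 0.893, 0.329 and 0.343 CPM in wild type and 1.58, 2.11 and 2.51 in mutant. The lowest mutant value was above the highest wild type value, that of library 1. The mean of gig2e rose from 0.522 ± 0.322 to 2.07 ± 0.464 CPM, a log2 fold change of 1.94 (SE 0.40, 95% interval 1.06 to 2.82, edgeR's adjusted p = 0.0222). In an exact permutation test of this gene alone, two-sided, p was 0.1, the smallest that 3 libraries against 3 allow.

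The call of gig2e depended on single libraries. Without wild type library 2 edgeR's adjusted p was 0.112, and without mutant library 1, 2 or 3 it was 0.0668, 0.0903 and 0.132. Calls over the whole table also fell there, from 476 to 146, 133, 155 and 115 in the same order. Without wild type library 1 or 3 they numbered 670 and 1225, and gig2e kept its call. Over the single left-out libraries the log2 fold change of gig2e ran from 1.67 to 2.59, the latter without wild type library 1. As its groups did not overlap, leaving out 1 library was not a test of the direction. With the replicate number as a block the adjusted p was 0.0546.

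Of the 6 tested members, 1 was called higher and 0 lower, where 3.37% of all 14107 tested genes were called, 1.76% higher and 1.62% lower. The groups did not overlap for 1 of the 6, against 24.6% of all tested genes. gig2e was also the single tested member with an unadjusted p under 0.05, a level that 19.4% of all tested genes reached. The members were chosen with earlier results of these data known. gig2e also passed the count filter through the mutant group, where it was high. For these reasons the shares are descriptions only. The median log2 fold change of the 6 was 0.12, beside -0.01 over all tested genes. For the other 5 tested members a p above the threshold does not show equal levels, and their intervals reach from 0.551-fold (irf7, lower bound) to 2.29-fold (rsad2, upper bound).

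The order of levels, per kilobase and over all 6 libraries, was irf9 at 5.1001, stat1a at 2.67, irf7 at 1.14, stat2 at 0.775, rsad2 at 0.617, gig2e at 0.464, isg15 at 0.0834 and stat1b at 0.0414 CPM per kilobase. The range of irf9 over the libraries (4.40 to 5.91) lay above that of stat1a (2.06 to 3.21), which lay above that of irf7 (0.888 to 1.53). From irf7 downward each neighbouring pair in the order overlapped in range. irf9 stood above 79.1% of tested genes per kilobase, stat1a above 68.0% and gig2e above 22.0%. The place of gig2e depended on pooling the genotypes: its mean was 0.187 CPM per kilobase in wild type and 0.741 in mutant, beside 0.527 and 0.707 for rsad2. By mean, gig2e stood below rsad2 in wild type and slightly above it in mutant. In mutant the ranges of the genes overlapped: rsad2 reached 1.01 in library 2, above the highest value of gig2e, 0.899.

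gig2e is 1 of 6 gig2 genes that the table places within 46.4 kb on chromosome 21 (22610689 to 22657125), all on the minus strand. Such near copies can share reads, so each split is uncertain. gig2j, the other tested gene of the cluster, had 12, 6 and 0 reads in wild type and 16, 14 and 13 in mutant. Its groups did not overlap, as for 24.6% of all tested genes. Like gig2e, gig2j passed the count filter through its mutant libraries. Its log2 fold change was 1.39 (SE 0.63, edgeR's adjusted p = 0.254), which did not pass the threshold. gig2d had 8, 6 and 12 reads in wild type and 14, 5 and 3 in mutant, a ratio of scaled counts of 0.919 (counting interval 0.497 to 1.69). gig2i had 11 reads in wild type and 4 in mutant, gig2h 1 and 3, and gig2l 0 and 1. gig2d, gig2i, gig2h and gig2l did not pass the filter.

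Summed over the 6 cluster genes, reads were 44, 26 and 19 in wild type and 68, 55 and 65 in mutant. As 1 feature, a setting chosen after the values were seen, the cluster had a log2 fold change of 1.22 (SE 0.27, edgeR's adjusted p = 0.0289). This sum contains gig2e, so it is not separate from the call of gig2e. The cluster without gig2e was not tested. gig2e held 37.1% of the cluster's reads in wild type (33 of 89, exact binomial 95% interval 27.07% to 47.97%) and 61.2% in mutant (115 of 188, 53.8% to 68.2%). These intervals pool the reads of each genotype and leave out the spread between libraries. By library, gig2e held 20 of 44, 7 of 26 and 6 of 19 reads in wild type and 34 of 68, 35 of 55 and 46 of 65 in mutant. Of the gig2 genes placed elsewhere, gig2o on chromosome 5 had a log2 fold change of 0.29 (SE 0.37, edgeR's adjusted p = 0.722), and gig2p, on the same chromosome, had 31 reads in wild type and 11 in mutant. The difference between gig2e and these genes was not tested.

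**Figure D2:**
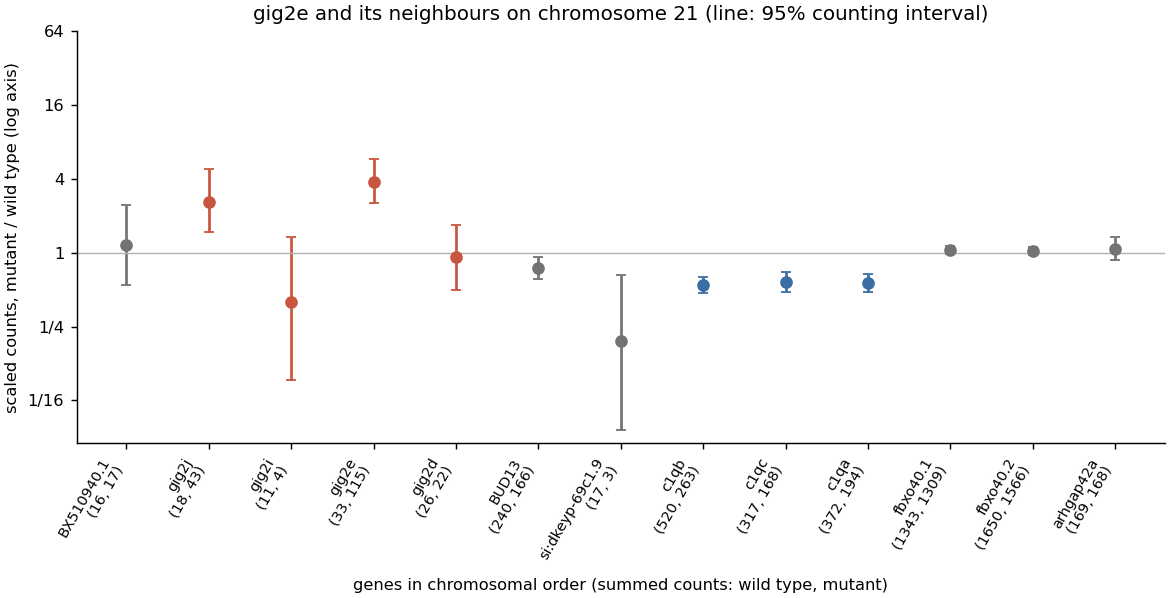
Points show the ratio of scaled counts, mutant over wild type, on a log axis for genes within 50000 bases of gig2e that had over 3 wild type reads, in chromosomal order; lines are 95% counting intervals, which leave out the spread between libraries, and summed counts of wild type and mutant stand in brackets. Of the gig2 genes (red), gig2e at 3.79 and gig2j at 2.60 lie above 1, and gig2i at 0.395 and gig2d at 0.919 lie below it. The nearby complement genes c1qb, c1qc and c1qa (blue) lie between 0.549 and 0.576.

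On the same stretch lie c1qa, c1qb and c1qc, which encode the chains of complement C1q and mark macrophages. c1qb had 520 reads in wild type and 263 in mutant, a log2 fold change of -0.88 (SE 0.21) that passed the threshold in edgeR's test with an adjusted p of 0.0398. c1qa (-0.84, SE 0.22, adjusted p = 0.0577) and c1qc (-0.78, SE 0.21, adjusted p = 0.0673) missed the threshold in the same edgeR fit. The values of these 3 genes were lower in mutant, and those of gig2e were higher.

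The wider pathway was described with 209 symbols in 7 lists by role, some of them alternative names of the same gene. Of the 209, 147 were found in the table, 5 of them through a synonym, and 85 were tested. edgeR called 0 of the 85. An unadjusted p under 0.05 was reached by 16 of them, 6 higher and 10 lower, a share of 18.8% that is near the 19.4% of all tested genes. The groups did not overlap for 17 of the 85, beside 24.6% of all tested genes. DESeq2 called 1 of the 85, mavs, beside 675 of all tested genes, and limma voom called 0, beside 414. The median log2 fold change of the 85 was 0.01.

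Interferon ligands had few reads. ifnphi1, a type I interferon gene, had 15 reads in wild type and 35 in mutant with overlapping groups, ifnphi3 had 1, and the interferon gamma genes ifng1-1 and ifng1-2 had 1 and 2. None of these passed the count filter. Among receptor chains, crfb1 (log2 fold change -0.07, SE 0.24) and crfb6 (-0.49, SE 0.27) were not called (edgeR's adjusted p = 0.910 and 0.352), and the list median was -0.07 over 3 tested genes.

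Sensors and signalling proteins had 12 tested genes, with a median of -0.04. mavs, the mitochondrial adaptor through which RNA sensors signal, stood at 30.6, 23.2 and 19.1 CPM in wild type and 16.7, 11.66 and 15.4 in mutant, without overlap. The log2 fold change of mavs was -0.74 (SE 0.20, 95% interval -1.18 to -0.29), and edgeR's adjusted p of 0.0718 missed the threshold. Over 15 alternatives the adjusted p of mavs ran from 0.00660 to 0.229, and 3 of them passed: DESeq2 (0.0438), edgeR without wild type library 3 (0.0188) and edgeR without a count filter (0.00660). Over the whole table these 3 fits called 675, 1225 and 1161 genes, beside 476 in the main fit. tbk1, a kinase that activates interferon regulatory factors, was at 0.15 (SE 0.18, edgeR's adjusted p = 0.697).

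The Janus kinases and the other STAT genes were all tested, 10 of 10, with a median of 0.21. jak1 (log2 fold change 0.11, SE 0.15) and jak2a (0.15, SE 0.17) were the most abundant and were not called (edgeR's adjusted p = 0.754 and 0.673). stat6, the STAT of interleukin 4 and 13 signalling in mammals, did not overlap between the groups, at 1.65 to 2.39 CPM in wild type and 2.84 to 3.87 in mutant, but its log2 fold change of 0.75 (SE 0.25) had an adjusted p of 0.117 in the edgeR fit. stat3, the other gene of the list without overlap, was lower in mutant, at -0.24 (SE 0.17, edgeR's adjusted p = 0.489). Among other interferon regulatory factors 4 were tested, with a median of 0.15; irf5 was at 0.04 (SE 0.20) and irf2a at 0.57 (SE 0.29, edgeR's adjusted p = 0.306). irf8, a factor of macrophage development, was the tested gene of that list without overlap, lower in mutant at -0.52 (SE 0.29, edgeR's adjusted p = 0.352). irf1a, which did not pass the count filter, had 2, 5 and 2 reads in wild type and 0, 0 and 0 in mutant.

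Antiviral effectors had 18 tested genes of 38 in the table, with a median of 0.18. xaf1, a pro-apoptotic interferon target in mammals, stood at 6.07 to 8.45 CPM in wild type and 4.15 to 5.02 in mutant, a log2 fold change of -0.71 (SE 0.19) with an edgeR adjusted p of 0.0695. Over 15 alternatives the adjusted p of xaf1 ran from 0.0214 to 0.256, and 2 of them passed: no count filter (0.0284) and edgeR without wild type library 1 (0.0214). Over the whole table these 2 fits called 1161 and 670 genes, beside 476 in the main fit. uba7, whose product activates Isg15 for conjugation in mammals, was at 3.62 to 6.62 CPM in wild type and 7.31 to 9.17 in mutant (0.55, SE 0.23, adjusted p = 0.209 in the same edgeR fit). Reads of 6 mx genes, which encode antiviral GTPases, were few: mxa had 35 reads over all libraries, mxb 12, mxc 3, mxd 61, mxe 48 and mxf 1. By library mxa had 9, 12 and 6 reads in wild type and 1, 3 and 4 in mutant. Its ratio of scaled counts was 0.322 (counting interval 0.126 to 0.728), and it did not pass the count filter. mxb had 6 reads in wild type and 6 in mutant.

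Negative regulators had 20 tested genes with a median of -0.16, and the interferon gamma targets 18 with a median of -0.12. irf2bp2a (log2 fold change 0.07, SE 0.25) and irf2bp2b (-0.20, SE 0.24), corepressor genes, were the most abundant of the former and were not called. usp18, whose product removes Isg15 and restrains receptor signalling in mammals, had 9 reads in all. The beta-2 microglobulin genes b2m (-0.02, SE 0.16) and b2ml (0.03, SE 0.15) were the most abundant of the latter (edgeR's adjusted p = 0.961 and 0.932).

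**Figure D3:**
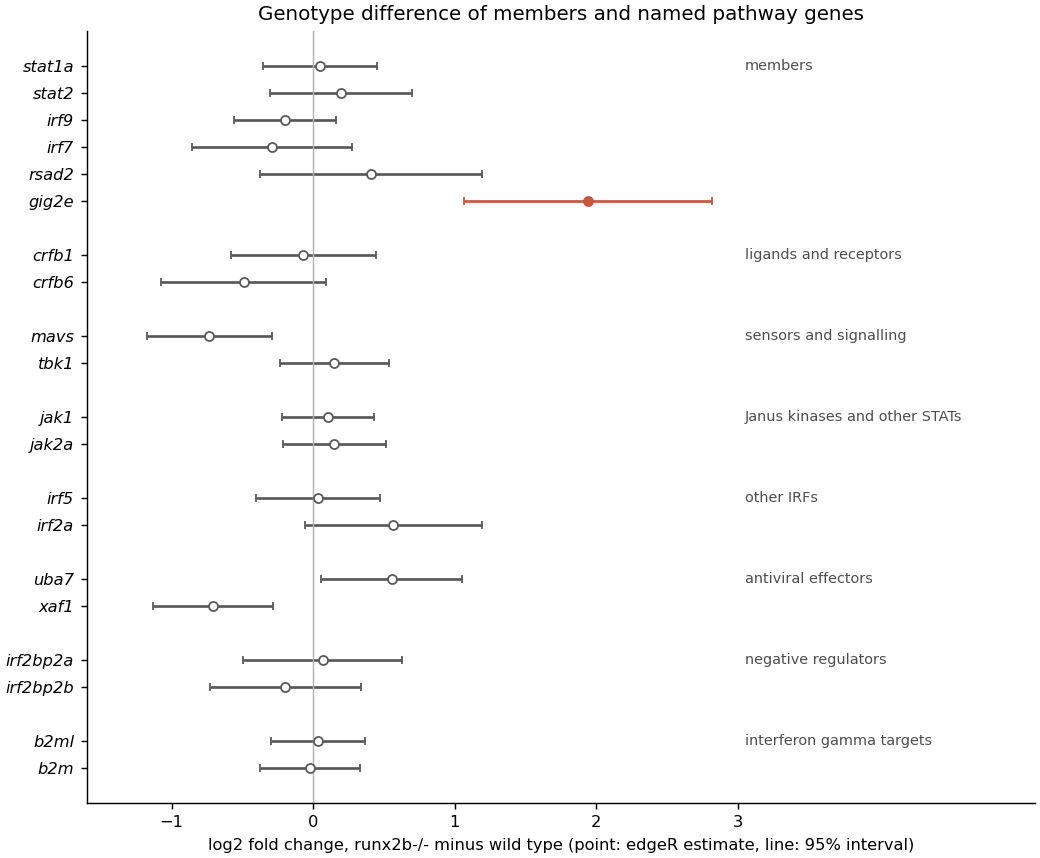
Log2 fold changes, mutant minus wild type, with 95% intervals from the edgeR fit, for the 6 tested members and the 14 named pathway genes grouped by role. gig2e (filled red, 1.94) is the one gene shown with an adjusted p under 0.05; mavs, xaf1 and uba7 have intervals that leave out 0 before adjustment.

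**Figure D4:**
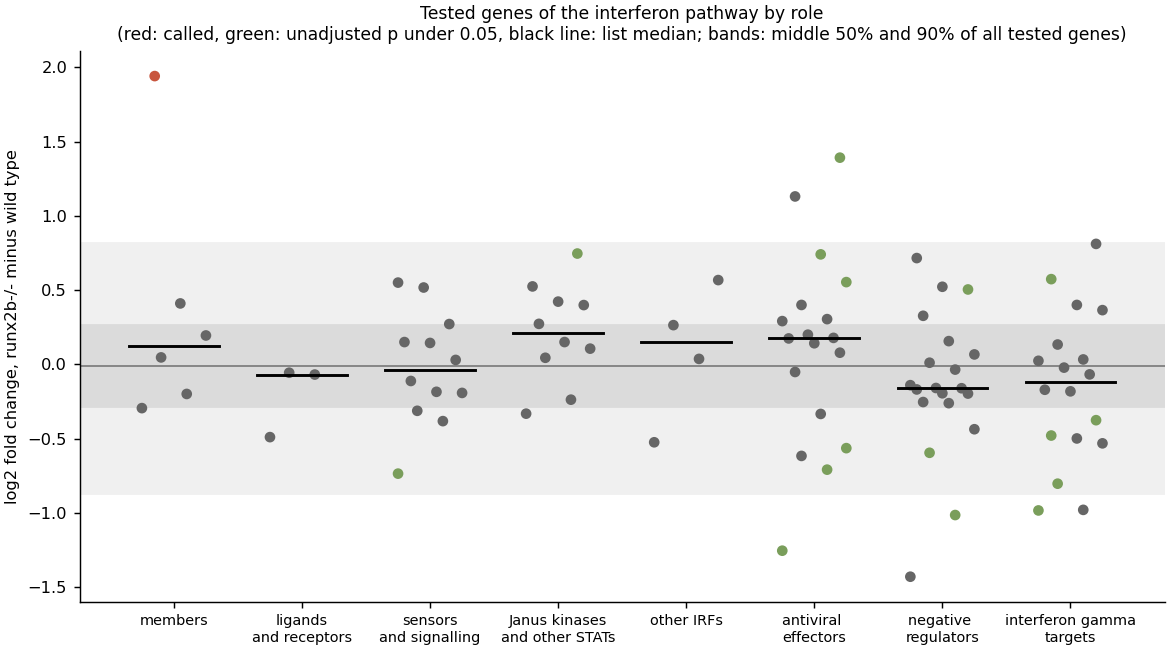
Each point is the log2 fold change of 1 tested gene, mutant minus wild type, by role list; black lines are list medians, and grey bands hold the middle 50% and 90% of all 14107 tested genes. The list medians run from -0.16 to 0.21, and gig2e (red) is the called gene.

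Bulk RNA cannot tell fewer cells of a type from less RNA per cell, and marker lists of other cell types held called genes, to be read beside the 3.37% called and 24.6% without overlap among all tested genes. Of 11 tested macrophage markers 1 was called lower and 5 did not overlap, all lower, and the list summed to 57.4 to 105.6 CPM in wild type and 42.6 to 54.8 in mutant. The called gene was c1qb, and the 5 were the adjacent c1qa, c1qb and c1qc, with havcr1 and grn1. havcr1 and grn1 passed the count filter through wild type, where they were high. mpeg1.2 went the other way, with a log2 fold change of 0.65 (SE 0.47) and overlapping groups. Of 4 tested neutrophil markers 2 were called lower and 3 did not overlap, all lower, with sums of 6.39 to 13.9 and 3.06 to 3.99 CPM. The 2 called genes, lyz and lect2l, passed the count filter through wild type, where they were high. mpx, mmp13a, cpa5 and mmp9 did not pass it, and their groups overlapped. Endothelial markers (8 tested, 1 called higher, 5 without overlap and higher) summed to 83.5 to 106.8 and 120.4 to 142.7 CPM, and red blood cell markers (8 tested, 4 called higher, 7 without overlap and higher) to 1158 to 1367 and 1539 to 1792 CPM. Yolk and oocyte markers (4 tested, 4 called lower, 4 without overlap) summed to 32.0 to 46.1 CPM in wild type and 0.273 to 1.27 in mutant. The 4 tested genes were the yolk genes vtg1, vtg4, vtg5 and vtg7, whose spans on chromosome 22 overlap in part, so they are not separate markers. These yolk genes also passed the count filter through wild type, where they were high. The listed oocyte genes (zp3b, zp2.1, zp2.2, ddx4 and buc) did not pass the count filter, and their groups overlapped. For example, buc had 145, 62 and 1 reads in wild type and 3, 0 and 2 in mutant.

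General leukocyte markers overlapped, at 48.5 to 83.7 CPM in wild type and 59.6 to 64.6 in mutant, with 0 of 8 called by edgeR and 0 at an unadjusted p under 0.05. The lists of T and NK cells (2.51 to 3.19 and 2.38 to 3.38 CPM), B cells (3.08 to 4.57 and 4.75 to 5.50), dendritic cells (3.99 to 4.29 and 3.02 to 4.97), fibroblasts (1248 to 1682 and 1169 to 2040) and epidermis (55.3 to 179.1 and 77.3 to 99.5) are given in the same order. No marker matched in the table was at 0 in all libraries. Some listed markers were not matched and have no values here: 10 of 15 were matched for T and NK cells and 7 of 9 for B cells. Of these 5 lists, epidermis had 1 of 5 tested genes called lower. The others had none called among 2 tested genes for T and NK cells, 3 for B cells, 2 for dendritic cells and 5 for fibroblasts, too few to show equal levels. Among tested genes, the groups did not overlap for 1 B cell gene, cd79b, higher in mutant (edgeR's adjusted p = 0.164), and for 1 epidermis gene, lower in mutant. Below the count filter, cd4-1 (20 reads in wild type, 4 in mutant) and cdh1 (30 and 7) did not overlap either, both lower. Of the B cell genes below the filter, cd79a had 6 reads in wild type and 0 in mutant, pax5 3 and 0, cd22 11 and 5, and ighz 0 and 2. The part of these cell types in the gig2e difference was not tested.

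Within the mutant group many members were highest in the same library. Among the 3 mutant libraries, library 2 had the highest CPM for 7 of the 8 matched members, all but gig2e, where 33.9% of all tested genes were highest in that library. The 8 include stat1b and isg15, which did not pass the count filter. Of the 6 tested members it was 5 (83.3%). The same library was highest for 14 of the 18 tested antiviral effectors (77.8%), such as adar, an RNA-editing deaminase, at 6.40 CPM beside 4.01 and 3.44, and znfx1, a helicase-like sensor gene, at 4.11 beside 2.14 and 2.13. The median log2 ratio of mutant library 2 over the mean of the other mutant libraries was 0.43 for the effectors and -0.0048 for all tested genes. With library size only as the scaling, the counts were 4 of 8 members and 12 of 18 effectors, where 23.8% of all tested genes were highest there. Over all 85 tested pathway genes 29 (34.1%) were highest in mutant library 2. Without mutant library 2 the log2 fold change of rsad2 was 0.09 in place of 0.41 and that of stat2 was -0.016 in place of 0.19, neither called with or without it. This pattern was noticed after the values were seen.

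**Figure D5:**
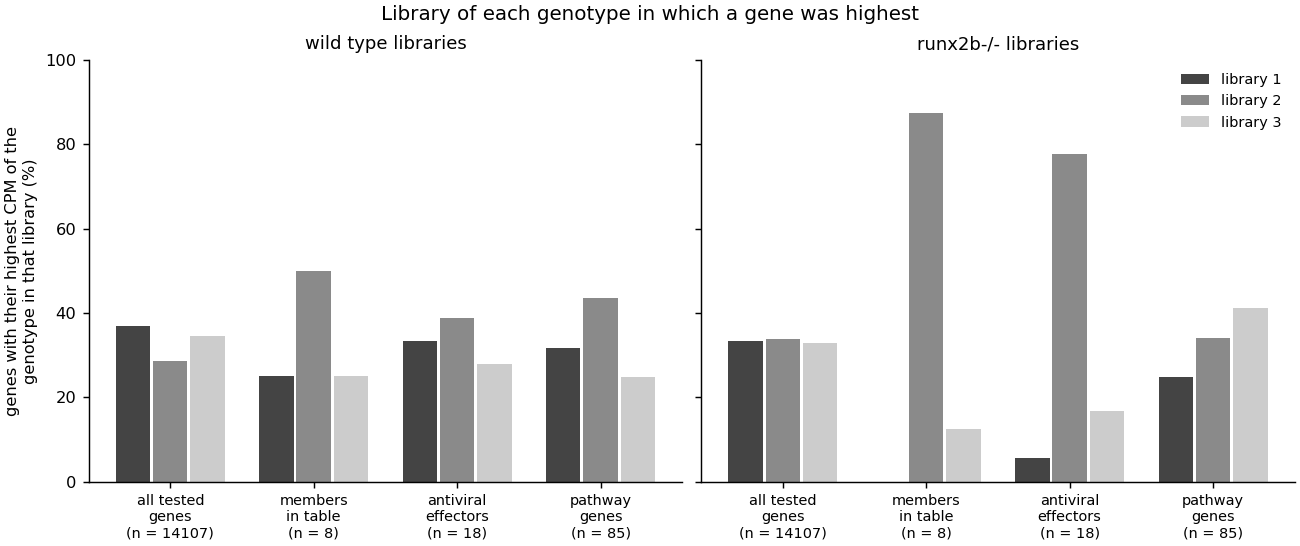
Bars give the percentage of genes of each set whose highest CPM within a genotype fell in library 1, 2 or 3, for wild type (left) and runx2b-/- (right). In the mutant panel, library 2 holds 87.5% of the matched members and 77.8% of the antiviral effectors, beside 33.9% of all tested genes. The matched members include stat1b and isg15, which did not pass the count filter.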

How the data were processed

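The deposited table gives, per the file headers, gene length and position and a raw read count in each of the 6 bulk libraries, made with a stranded mRNA kit per the labels. The sources used here do not give the aligner, counter, strand setting or build of that table; Cell Ranger and GRCz11 appear in the submitters' processing notes with no role. Positions are printed as the table has them. The 2 single-cell samples were not analysed here.

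The fits used edgeR 4.0.16 under R 4.3.3. Its function filterByExpr (minimum count 10, minimum total 15) left 14107 genes, and TMM factors were 0.882 to 1.13. Genotypes were compared with the robust quasi-likelihood test, and p-values were adjusted by Benjamini-Hochberg across the 14107 genes. Called means an adjusted p under 0.05. The SE is the absolute log2 fold change over the square root of F. Counting intervals are exact binomial (95%) and, like floors of 3 reads, cover counting error only. DESeq2 1.42.0 and limma 3.58.1 (voom) were alternatives.

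Members and lists were chosen with earlier results of these data known. Named genes are the members and, per role list, up to 4 called genes or else the 2 most abundant. Other named genes were the gig2 and c1q genes, stat3, stat6, irf8, irf1a, the ligands, mx genes and usp18. Further ones were adar, znfx1, psmb9a, tdrd7a, helz2 and single marker genes. All of these others were named after their values were seen.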

Additional observations from a re-analysis of the deposited data

How the results depend on the processing

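The number of called genes over the whole table was 1161 without a count filter and 304 with at least 50 counts in 3 libraries, and ran from 115 (without mutant library 3) to 1225 (without wild type library 3) when single libraries were left out. The number of called members was 0 with the replicate block, 0 with at least 50 counts (which leaves gig2e untested) and 0 or 1 without single libraries. In 10 of 15 alternatives that could test it gig2e kept its call. Over the 15 its edgeR, DESeq2 or voom adjusted p-values ran from 0.000209 to 0.132. Of those 10, 1 was the sum of its chromosome 21 family, a different feature chosen after the values were seen. The log2 fold changes ran from 1.22, the value of that sum, to 2.59. For gig2e by itself the lowest was 1.67, without wild type library 2. Called pathway genes numbered 4 of 147 without a filter, beside 1161 of 25279 genes in all. They were mavs and xaf1 (lower), psmb9a (higher, 9 reads in wild type and 51 in mutant) and tdrd7a (lower, 15 and 0). DESeq2 called 1 of 85 (mavs), beside 675 of 14107. Leaving out single libraries gave 0 to 3. Without wild type library 1 it was xaf1, 1 of 96 beside 670 of 14528. Without wild type library 3 they were helz2, mavs and psmb9a, 3 of 95 beside 1225 of 14840. Each of these shares was below that of all genes in the same fit. The labels do not say whether replicate numbers pair the libraries. Deviations of same-numbered libraries correlated at -0.06, 0.02 and 0.03, and 0 of 6 libraries correlated best with their own number. The block gave 377 calls in place of 476. So few correlations cannot settle whether the libraries were paired, which was not tested. Uncalled log2 fold changes near 0 changed sign: with the length correction stat1a (-0.0072), jak1 (-0.054), b2ml (-0.0059) and b2m (0.080), and with library size only irf5 (-0.0065) and b2ml (-0.0034). Without single libraries the ranges that crossed 0 were stat1a -0.11 to 0.22, stat2 -0.016 to 0.33, crfb1 -0.18 to 0.10, tbk1 -0.016 to 0.25, irf5 -0.13 to 0.15, irf2bp2a -0.18 to 0.27, irf2bp2b -0.42 to 0.017, b2ml -0.043 to 0.094 and b2m -0.10 to 0.10. Ranges that kept their sign included rsad2 0.09 to 0.57 (lowest without mutant library 2), irf7 -0.42 to -0.14 (nearest 0 without wild type library 2), irf9 -0.27 to -0.14 and irf2a 0.29 to 0.79 (lowest without wild type library 2). Those of gig2e, crfb6, mavs, jak1, jak2a, uba7 and xaf1 kept their sign too. The causes were not tested. Among the members depth limits isg15 and stat1b, with 10 and 21 reads over all libraries.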

Other observations

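After genotype means were taken out, Pearson's r between pairs of the 6 tested members over the 6 libraries had a median of 0.04 over 15 pairs, from -0.77 for stat1a with gig2e to 0.81 for irf9 with irf7. These are descriptions over 6 libraries that share their scaling, and they carry no p. By the same measure, and out of 11615 genes scanned, the genes most like gig2e were cenpe, fhod3b and paip2b, those most like irf9 were top2b, rab3il1 and cahz, and those most like irf7 were eda, tram1 and jkamp. For stat1a they were nfkbie, atg101 and tmem131l, for stat2 rca2.1, trim47 and gcnt4a, and for rsad2 as3mt, ttyh3b and ralgps2. Each r lay between 0.987 and 0.9998, the highest of many genes over few libraries.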
